A study of Mus musculus with 8 samples.

Results

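Open chromatin in the first introns of genes was examined in CD11b+ microglia, the resident macrophages of the brain, from the mouse forebrain. The assay was ATAC-seq, in which a transposase cuts accessible DNA and leaves sequencing adapters there, so that a site's tag count follows its accessibility. A peak was a member of the set when the deposited annotation placed it in intron 1 of a transcript, outside repeats and CpG islands, on chromosomes 1 to 19. This gave 9598 of the 67822 listed peaks (14.2%). Members were 201 to 1263 bp wide, with a median of 265 bp. The 4 wild-type libraries (WT) come from mice of C57BL/6N background, and the 4 others from Cias1-knockout mice from Millennium Pharmaceuticals, named Nlrp3-/- (NLRP3KO). Cias1 is an older name of Nlrp3. The labels give no age, no treatment and no description of the knockout allele, and they do not say whether the background of the knockout mice is the same. Nor do they say that the replicates of a genotype were separate animals. The p-values therefore speak of the spread between these 8 libraries, part of which may be technical.

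A first intron starts just behind the first exon, so its accessible DNA can lie near the start site of the transcript. Of the members here, 15.1% lay within 1 kb of the nearest start in the deposited table. First introns are often long and are known to hold enhancers, alternative promoters and binding sites of lineage factors. In macrophages such elements are typically opened by PU.1 together with partners such as AP-1, C/EBP and RUNX factors. NLRP3 senses danger and damage signals and assembles the inflammasome that switches on caspase-1. The series links NLRP3 to glutamine breakdown in microglia of the Alzheimer's brain. Gene expression was not measured here, and a peak's gene is the one whose start site the deposited table gives as nearest. That gene was also the host of the intron for 8800 of the 9582 members whose host could be matched (91.8%), and another gene for 782.

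The sequences below show what kind of DNA some members hold at a start site. RefSeq gives windows from 250 bases before to 50 after the start of a gene (GRCm38.p6, the assembly of mm10). Of the 9598 members, 111 (1.16%) met such a window by at least 1 base, against 81 later-intron peaks (0.591%) and 8583 promoter peaks (66.7%). At least 100 bases were shared by 78 members, 35 of them with a window of the assigned gene and 43 with a window of another gene only. The Smad3 peak was printed because it had the highest WT level per kb of these 78 members. Smad3 carries signals of the TGF-beta receptor. The peaks of Mctp1, Fam222b and Atxn7l1 had the highest levels among members at a start of their own gene, and Abca7 is a lipid transporter tied to phagocytosis; all 5 were chosen after their values were seen. All are on the plus strand, run up to the base before the start, and carry searched motifs in capitals.
Smad3 (chr9:63731460-63731619, before the start of Gm51710): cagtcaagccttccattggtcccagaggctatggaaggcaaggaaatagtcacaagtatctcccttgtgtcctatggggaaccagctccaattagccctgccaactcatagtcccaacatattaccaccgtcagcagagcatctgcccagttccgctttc
Mctp1 (chr13:76579439-76579596): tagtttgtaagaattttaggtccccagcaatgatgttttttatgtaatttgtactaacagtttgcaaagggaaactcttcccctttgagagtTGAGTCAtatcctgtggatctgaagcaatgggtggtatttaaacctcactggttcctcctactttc
Fam222b (chr11:78115376-78115625): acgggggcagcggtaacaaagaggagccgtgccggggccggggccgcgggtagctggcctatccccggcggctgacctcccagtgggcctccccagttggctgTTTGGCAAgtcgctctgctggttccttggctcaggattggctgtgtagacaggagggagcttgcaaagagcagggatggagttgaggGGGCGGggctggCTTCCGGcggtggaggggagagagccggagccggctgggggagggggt
Atxn7l1 (chr12:33314142-33314296): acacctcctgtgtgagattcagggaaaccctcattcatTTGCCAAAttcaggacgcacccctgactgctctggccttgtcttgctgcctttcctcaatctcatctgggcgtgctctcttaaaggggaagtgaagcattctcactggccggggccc
Abca7 (chr10:79996305-79996493): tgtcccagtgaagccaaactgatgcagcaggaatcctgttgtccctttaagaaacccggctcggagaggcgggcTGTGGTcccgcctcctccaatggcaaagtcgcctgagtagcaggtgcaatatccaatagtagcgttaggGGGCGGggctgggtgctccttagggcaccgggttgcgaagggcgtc

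The capitals mark an AP-1 motif in Mctp1 and a C/EBP motif in Atxn7l1. In Fam222b they mark a C/EBP motif, a GC box and an ETS motif in that order, and in Abca7 a RUNX motif and a GC box. The Smad3 stretch held none of the 7 motifs. The Smad3 peak had 90.0, 73.1, 67.2 and 76.4 CPM in WT replicates 1 to 4 and 96.5, 88.6, 94.0 and 88.0 in NLRP3KO replicates 1 to 4, where CPM is tags relative to a library's tags in tested peaks (counts per 1e6) after TMM scaling. The groups overlapped by 1 WT library, and the edgeR log2 fold change was 0.25 (SE 0.12, adjusted p = 1). The Mctp1 peak, 194615 bp from the nearest start in the deposited table but next to a RefSeq start, had 37.3 ± 8.50 CPM (SD, n = 4) in WT and 28.1 ± 5.19 in NLRP3KO (log2 -0.36, adjusted p = 1). The Abca7 peak lies in the first of 4 introns of a noncoding transcript, with 22.4 ± 2.62 CPM in WT and 21.8 ± 1.81 in NLRP3KO.

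Motifs were searched on both strands in the 82 start windows that shared 100 bases or more with a member, in 9717 windows that did so with a promoter peak, and in all 31365 windows. The GC box (GGGCGG) was in 36.6% of the first-intron windows, 69.6% of the promoter-peak windows and 36.0% of all windows. The ETS motif (CCGGAAG) was in 8.54%, 21.3% and 9.0%, and the E-box (CACGTG) in 6.10%, 10.9% and 7.14%. The RUNX motif (TGTGGT) was in 19.5%, 11.8% and 16.7%, the C/EBP motif (TTGCNNAA) in 12.2%, 7.47% and 10.9%, and the AP-1 motif (TGANTCA) in 7.32%, 4.17% and 7.85%. The core of the PU.1 motif (GAGGAAG), itself an ETS family motif, was in 14.6%, 13.8% and 13.4%. Start windows under first-intron peaks thus had shares near those of all windows and below those of promoter-peak windows for GC box, ETS and E-box, and the median GC content was 53.0%, 62.3% and 53.0% in the same order. A match is a description of letters and not a bound site.

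In WT libraries the members were mostly weak peaks with a long upper tail. The median level was 30.9 CPM per kb of peak, with 5% of members below 14.9 and 5% above 136 CPM per kb. Later-intron peaks had a median of 31.8, intergenic peaks within 20 kb of a start 33.6, and promoter peaks 57.3 CPM per kb. First-intron peaks lay below later-intron peaks in 8 of 8 libraries, by 0.04 ± 0.026 (SD) in the median log2 CPM per kb, with an exact paired permutation p of 0.00781, two-sided, the smallest that 8 libraries allow. Without division by peak length the difference turned to 0.0011 (exact permutation p = 1), so its direction rests on that division. IDR, which keeps peaks that rank alike between replicates, was run by the authors for each genotype, and 72.3% of members were in both lists against 73.3% of later-intron and 86.2% of promoter peaks.

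**Figure D1:**
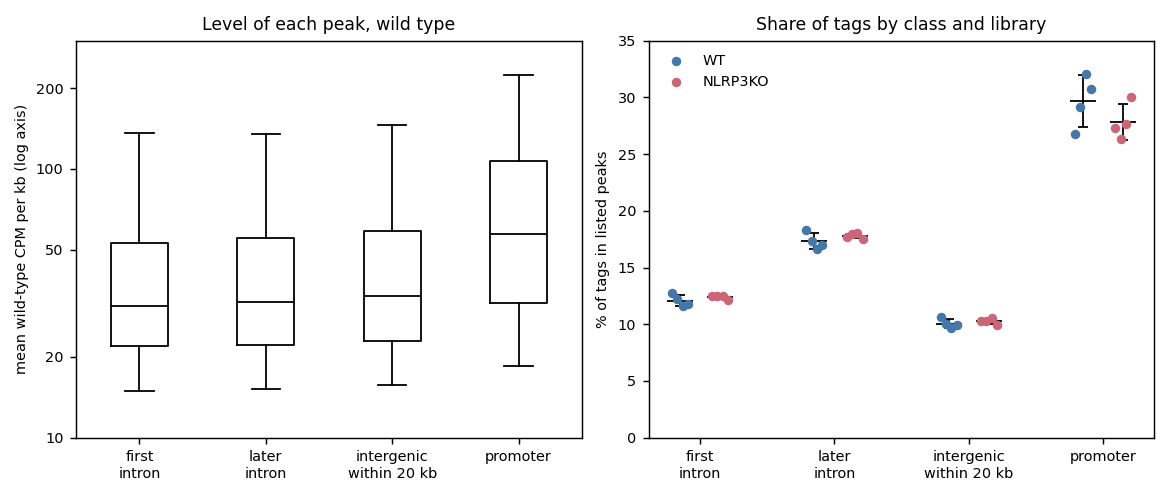
Left, mean wild-type CPM per kb of each listed peak by class on a log axis (line, median; box, quartiles; whiskers, 5th and 95th percentiles); right, percent of tags in listed peaks that fell in each class, 1 point per library, with mean and SD (n = 4 per genotype). First-intron peaks have a median of 30.9 and promoter peaks 57.3 CPM per kb, and the genotypes overlap in every class.

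The 10 strongest members lay in 10 genes, at 347 to 404 CPM per kb in WT. The highest was in Ccdc12 (chr9:110676705-110676948) with 404 ± 44.7 CPM per kb, then Ank2, which encodes a membrane scaffold of the ankyrin family (chr3:127355332-127355536), with 404 ± 25.8. A peak of Mef2c, a transcription factor of microglial identity (chr13:83572045-83572256), had 387 ± 26.4 CPM per kb. It was followed by Slc38a10, of an amino acid transporter family (385 ± 61.7), Sipa1l1, a regulator of Rap GTPases (385.0 ± 37.9), and Inpp5d, the lipid phosphatase SHIP1 (368 ± 27.3). The other 4 of the top 10 were Gm10677, inside the first intron of the adhesion gene Cadm1 (362 ± 22.7), Soga1 (359 ± 67.1), Tbc1d10a, a regulator of Rab GTPases (358 ± 48.8), and C130050O18Rik (347 ± 78.5). Neighbours in this order differ by less than their SD. None of the 10 passed the test between genotypes, with log2 fold changes from -0.08 to 0.25. The Mef2c peak had 88.5, 79.4, 75.7 and 84.3 CPM in WT replicates 1 to 4 and 91.7, 101.9, 90.5 and 76.0 in NLRP3KO replicates 1 to 4. The genotypes overlapped there. At Ank2 they did not overlap, with 78.0 to 89.5 CPM in WT and 91.9 to 105 in NLRP3KO, but the log2 fold change of 0.24 (SE 0.12) had an edgeR adjusted p of 1.

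Members were spread over 4050 genes, and 92.9% were assigned to protein-coding genes. A single member was found in 2242 genes, at least 5 in 463 and at least 10 in 119. Elmo1, an adaptor in the engulfment of dying cells, had 33 members between 753 and 94761 bp from a start, with WT levels of 11.1 to 103 CPM per kb. Cmip had 27 (17.3 to 108 CPM per kb) and Dock4, an activator of Rac, had 26 (9.89 to 199). The next were Epb41l2 with 24, and Ptprj, a receptor phosphatase, and Ski, a repressor of SMAD signalling, with 23 each. In each of these 6 genes no member passed the test, which only 0.150% of all tested members passed. A promoter peak was listed for 3018 of the 4050 genes (74.5%). In 1042 of the 3018 (34.5%) the strongest first-intron peak was above the strongest promoter peak per kb. Across those genes, which share libraries and are not replicates, both levels had a Spearman correlation of 0.055.

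Median levels at different distances from the start lay between 28.0 and 32.3 CPM per kb. The median distance was 6472 bp (111 to 261245 bp), counted to the nearest start of the deposited table. Within 1 kb there were 1446 members with a median of 28.0 CPM per kb in WT, from 1 to 5 kb 2812 with 31.4, from 5 to 20 kb 3111 with 32.3, from 20 to 100 kb 2025 with 31.0, and beyond 100 kb 204 with 29.4. Members within 1 kb were in both lists in 66.6% of cases, against 72.9% to 75.5% in the other bins. The share of member tags in each bin did not differ between genotypes beyond the spread. Within 1 kb it was 13.6% ± 0.25 in WT and 13.6% ± 0.433 in NLRP3KO, and the adjusted p was 0.971 in all 5 bins (exact permutation test, two-sided).

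The labelled cell type and genotype were checked before the comparison. All 22 homeostatic microglia genes had a listed peak, with 304 peaks in all. Their summed levels were 5228 to 5575 CPM in WT and 5276 to 5842 in NLRP3KO. The 6 lists for other cells held 32 to 77 peaks each. A sum grows with the number of peaks, so the sums compare genotypes within a list and not one list with another. Of the neuron markers 8 of 20 had a peak, with 339 to 387 CPM in WT and 363 to 422 in NLRP3KO. CD11b is also carried by monocytes, border macrophages and neutrophils. The ranges of the astrocyte (11 of 14 genes; 450 to 564 and 526 to 678), oligodendrocyte lineage (12 of 15; 961 to 1013 and 965 to 1125), and endothelial and mural lists (10 of 15; 797 to 842 and 796 to 884) overlapped between genotypes. So did those of the border macrophage and monocyte list (14 of 15; 529 to 610 and 485 to 713) and the granulocyte and lymphocyte list (8 of 18; 434 to 483 and 433 to 499). The 6 lists for other cells had 1 to 5 members each, and 0 of these passed. In bulk samples, fewer cells of a type and less accessibility per cell cannot be told apart. No member is assigned to Nlrp3 (chr11:59541569-59566955). Its 2 promoter peaks held 54 to 80 tags per peak in each WT library, and 3 tags summed over both peaks and all NLRP3KO libraries. Of the members within 10 Mb of Nlrp3, 135 were tested and 0 passed (lowest edgeR adjusted p = 0.88). Over all tested members 0.150% passed, so 0 of 135 is near that share.

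Depth differed within genotypes. Libraries held 11325865 to 15521580 tags, of which 9.79% to 17.5% fell in listed peaks in WT. In NLRP3KO replicates 1 to 4 the share was 6.68%, 4.96%, 20.9% and 26.2%. The median member held 14 to 19 tags per WT library, 8 and 7 in NLRP3KO replicates 1 and 2, and 20 and 26.5 in replicates 3 and 4. Members with 0 tags numbered 2 to 14 per WT library and 56, 107, 10 and 6 in NLRP3KO replicates 1 to 4. Chromosome Y tags were 201 and 255 in WT replicates 3 and 4 and 88 in NLRP3KO replicate 3, against 1 to 13 elsewhere. These counts did not follow depth, since NLRP3KO replicate 4, with the most tags in peaks (3252424), had 1. The sex of the mice was not a term of the fit, and whether it differed between libraries was not tested. The fits were repeated without each library, and without NLRP3KO replicates 1 and 2 together.

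As a class, first-intron peaks took shares of tags that did not differ between genotypes beyond the spread. They held 12.7%, 12.3%, 11.6% and 11.8% of the tags in listed peaks in WT replicates 1 to 4, and 12.5%, 12.5%, 12.5% and 12.1% in NLRP3KO replicates 1 to 4. In NLRP3KO replicate 2, the library with the fewest tags in peaks, the 95% Wilson interval was 12.4% to 12.5%, which covers counting error only. The means were 12.1% ± 0.516 and 12.4% ± 0.191 (SD, n = 4), a difference of 0.307 points with an exact permutation p of 0.314 (adjusted 0.419 over 4 classes). Later-intron peaks had 17.3% ± 0.711 and 17.8% ± 0.227 (exact p = 0.286), and promoter peaks 29.7% ± 2.30 and 27.8% ± 1.57 (exact p = 0.257). The log2 ratio of first-intron to later-intron tags was -0.52 ± 0.013 in WT and -0.52 ± 0.015 in NLRP3KO (exact p = 0.571, smallest possible p 0.0286).

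Individual members rarely passed the test, and those that did were mostly lower in the knockout. Of the 9598 members, 8018 held enough tags to be tested and 1580 did not. With edgeR's quasi-likelihood test, adjusted over all 58135 tested peaks, 12 of the 8018 passed at an adjusted p under 0.05 (0.150%), against 99 of all tested peaks (0.170%). One member was higher (0.0125%, against 0.0550% of all tested peaks), and 11 were lower (0.137%, against 0.115%). The split moved to 7 higher and 11 lower without NLRP3KO replicate 4, with 8 of the 12 calls kept, and to 4 higher and 23 lower without NLRP3KO replicates 1 and 2, with all 12 kept. An unadjusted p under 0.05 was found for 426 members (5.31%) and 2808 peaks in all (4.83%). The genotypes did not overlap at 290 members (3.62%), against 3.17% of all tested peaks, with 169 higher in the knockout (2.11%, against 1.68%) and 121 lower (1.51%, against 1.49%). A fitted log2 fold change above 1 was found for 20 members (0.249%, against 0.306%) and one below -1 for 45 (0.561%, against 0.423%). Member shares thus lay above the background in some of these counts and below it in others, and these differences were not tested. The higher calls rest on 1 member, too few to set against the background. Over all tested members the median log2 fold change was 0.030 (0.0037 over all tested peaks), the 5th and 95th percentiles were -0.49 and 0.50, and the median SE was 0.28.

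The calls came from peaks that the authors had listed in 1 genotype. Of 6758 tested members in both lists 0 passed, 11 of 989 in the WT list only were lower, and 1 of 271 in the NLRP3KO list only was higher. The lists were made from the same libraries, so this match is nearly fixed in advance. The 12 members lie in 10 genes. They sit on chromosomes 9 (6 members), 11 (3), 6 (2) and 17 (1), while chromosome 9 holds 6.09% of tested members. Over all 99 called peaks, 26 were on chromosome 9 (26.3%). Of the 12, 11 had another called peak of any class within 2 Mb, as did 82 of all 99 (82.8%). From 5 to 20 kb from a start, 8 of 2622 tested members were called, the 3 of Mapkapk3 among them. The counts were 0 of 1189 within 1 kb, 2 of 2359 from 1 to 5 kb, 2 of 1679 from 20 to 100 kb and 0 of 169 beyond. These counts are too small to show a pattern with distance.

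**Figure D2:**
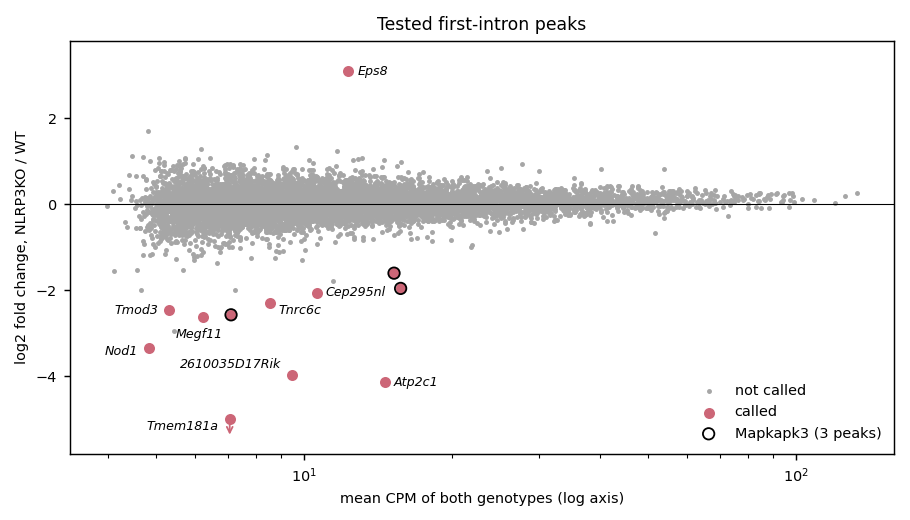
Log2 fold change of NLRP3KO over WT against the mean CPM of both genotypes on a log axis, 1 point per tested first-intron peak (8018), with the 12 called members in red. Eps8 is the only called member above 0; Tmem181a, with 0 tags in every knockout library, is drawn at the bound of its fold with an arrow.

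The higher member lies in the first of 21 introns of Eps8, which caps and bundles actin filaments (chr6:137630534-137631246, 18395 bp from the start). It had 1.49, 2.81, 2.85 and 2.79 CPM in WT replicates 1 to 4 and 22.9, 25.1, 21.1 and 19.4 in NLRP3KO replicates 1 to 4. All 4 knockout libraries were above all WT libraries, and the peak had the lowest WT level per kb of all 9598 members. The means were 2.49 ± 0.663 and 22.1 ± 2.45 CPM, a log2 fold change of 3.09 (SE 0.30, edgeR adjusted p = 8.93e-07). Of the other 6 tested first-intron peaks of Eps8 none passed (log2 -0.46 to 1.24, lowest adjusted p 0.11), and its promoter peak had a log2 fold change of -0.0039. Within 2 Mb, 9 of 71 other tested peaks passed, 3 higher and 6 lower. With scaling to all tags the Eps8 value was as large (log2 3.18), but it did not pass (adjusted p = 0.0908).

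The lower member with the smallest p lies in the first of 26 introns of Atp2c1, a Golgi pump for calcium and manganese (chr9:105502455-105502714). It had 24.4, 31.6, 22.8 and 30.3 CPM in WT replicates 1 to 4 and 1.21, 4.43, 1.32 and 0.971 in NLRP3KO replicates 1 to 4. The groups were far apart, with NLRP3KO replicate 2 above the other knockout libraries on a count of 3 tags. The log2 fold change was -4.14 (SE 0.34, edgeR adjusted p = 3.92e-08), and it passed under all 16 alternatives. A second Atp2c1 member (chr9:105475051-105475336) had 8.65 CPM in WT and 2.25 in NLRP3KO without overlap (log2 -2.94, adjusted p = 0.0563), and the remaining member had -1.02 (adjusted p = 0.748). A further intronic Atp2c1 peak, which lies outside the member set (chr9:105458978-105459336), fell from 42.3 ± 15.5 CPM in WT to 17.9 ± 1.04 in NLRP3KO (log2 -1.25, edgeR adjusted p = 0.00704). An intergenic peak near a start of Atp2c1 had -2.25 (adjusted p = 0.0555), and the 3 promoter peaks had values from -0.60 to -0.29 and did not pass. Within 2 Mb of the called member, 17 of 126 other tested peaks passed.

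A member in the first of 16 introns of Tmem181a, a membrane protein gene (chr17:6272099-6272315), held no tag in the knockout. It had 38, 21, 28 and 15 tags in WT replicates 1 to 4 (14.1 ± 5.08 CPM) and 0 in each NLRP3KO library. Against a floor of 3 tags over the knockout group, which is 0.436 CPM, it was at least 31.8-fold lower (edgeR adjusted p = 7.12e-06). It is the only listed peak of that gene, and it passed under all 15 alternatives that tested it. Within 2 Mb, 2 of 176 other tested peaks passed, both lower.

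Mapkapk3, a kinase activated by p38 MAP kinase, had 8 first-intron peaks, of which 6 were tested and 3 fell. All 3 lie in the first of 7 introns, 8407 to 10667 bp from the start. Within 2 Mb of each, 16 of 259 other tested peaks passed, 2 higher and 14 lower. The peak at chr9:107280869-107281110 had 16.9, 12.6, 7.97 and 9.78 CPM in WT replicates 1 to 4 and 3.62, 2.95, 1.76 and 1.29 in NLRP3KO replicates 1 to 4 (log2 -2.57, SE 0.41, edgeR adjusted p = 0.00152). The peak at chr9:107278588-107278870 had 17.1 to 35.8 CPM in WT and 2.91 to 14.5 in NLRP3KO (log2 -1.96, SE 0.34). The peak at chr9:107280045-107280520 had 13.97 to 27.8 and 5.27 to 13.3 CPM (log2 -1.60, SE 0.29). The genotypes did not overlap at any of the 3, though at the last of them the lowest WT and the highest knockout library were at 13.97 and 13.3 CPM. The other 3 tested members had log2 fold changes from -1.24 to -1.11 and did not pass (lowest adjusted p 0.561). Thus all 6 fitted values were below 0, while the later-intron peak of the gene had -0.34 (adjusted p = 1).

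The promoter of Mapkapk3 held 2 listed peaks, of which 1 fell with the first-intron peaks. The peak at -13 bp from a start (chr9:107289771-107290010) went from 60.6 ± 3.60 CPM in WT to 25.8 ± 3.74 in NLRP3KO (log2 -1.20, SE 0.16, edgeR adjusted p = 0.000103). The other, at -158 bp from a start (chr9:107289420-107289689) had 8.58 ± 0.869 and 10.2 ± 4.52 CPM (log2 0.14, adjusted p = 1). Both are printed since they neighbour each other and only 1 passed. Each stretch is on the minus strand, upstream of a RefSeq start.
Mapkapk3 called promoter peak (chr9:107289878-107290010): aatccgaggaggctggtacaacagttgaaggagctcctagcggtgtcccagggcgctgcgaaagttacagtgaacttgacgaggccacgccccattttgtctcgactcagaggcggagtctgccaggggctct
Mapkapk3 promoter peak not called (chr9:107289420-107289646): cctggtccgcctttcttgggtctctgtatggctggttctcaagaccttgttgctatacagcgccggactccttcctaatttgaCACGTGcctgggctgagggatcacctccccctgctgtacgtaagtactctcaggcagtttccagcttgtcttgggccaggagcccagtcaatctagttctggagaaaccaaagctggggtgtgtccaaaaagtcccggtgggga

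The stretch of the called promoter peak held none of the 7 motifs, and the other held an E-box, in capitals. With scaling to all tags the 3 called first-intron peaks of Mapkapk3 had log2 fold changes of -2.58, -1.92 and -1.62, close to those above, but adjusted p-values of 0.561, 1 and 1. The peak at chr9:107280045 also lost the call without WT replicate 1 (adjusted p = 0.0628), NLRP3KO replicate 3 (0.118) or NLRP3KO replicate 4 (0.0688; edgeR, range 0.000314 to 1).

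**Figure D3:**
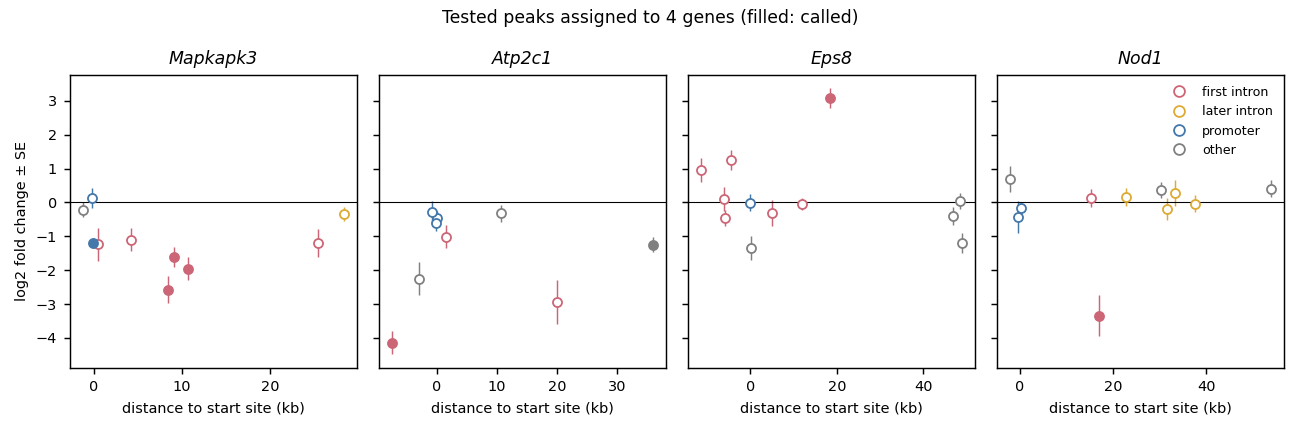
Log2 fold change (± SE) of every tested peak assigned to Mapkapk3, Atp2c1, Eps8 and Nod1 against its deposited distance to the nearest start, with called peaks filled. In Mapkapk3 all 6 first-intron values are below 0, from -2.57 to -1.11, whereas in Nod1 the called member at -3.34 stands beside another first-intron peak at 0.14.

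Nod1, a sensor of bacterial cell wall fragments in the same protein family as NLRP3, had a lower member in the first of 11 introns (chr6:54954687-54954918). It had 6.96, 8.43, 6.83 and 10.7 CPM in WT replicates 1 to 4 and 2.41, 2.95, 0.439 and 0 in NLRP3KO replicates 1 to 4. The groups did not overlap, at low levels, and a count of 0 in NLRP3KO replicate 4 allows up to 0.971 CPM. The log2 fold change was -3.34 (SE 0.60, edgeR adjusted p = 0.00728). The call was lost without WT replicate 4 (adjusted p = 0.0758), NLRP3KO replicate 3 (0.104) or NLRP3KO replicate 4 (0.0563; edgeR, range 0.000125 to 0.104). The other first-intron peak of Nod1 had 0.14, its promoter peaks -0.43 and -0.17, and its 4 later-intron peaks -0.19 to 0.27, none of which passed. Within 2 Mb of the called member, 2 of 117 other tested peaks passed, 1 higher and 1 lower.

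On chromosome 11, 3 members fell. The member of 2610035D17Rik (chr11:113101730-113101953, 99997 bp from the start) had 29.8, 14.05, 17.1 and 8.38 CPM in WT replicates 1 to 4 and 2.41, 2.95, 0 and 0.971 in NLRP3KO replicates 1 to 4 (log2 -3.98, SE 0.53, edgeR adjusted p = 0.000125). It passed under all 15 alternatives that tested it. The member of Tnrc6c, which encodes a protein of microRNA silencing (chr11:117663534-117663809), had 12.9, 9.84, 18.8 and 13.97 CPM in WT and 3.62, 4.43, 1.76 and 2.91 in NLRP3KO (log2 -2.30, SE 0.35). The promoter peak of Tnrc6c had a log2 fold change of -0.12 and did not pass. The member assigned to Cep295nl lies in the first intron of Timp2, an inhibitor of metalloproteases (chr11:118345747-118345995), and had 27.3, 12.6, 16.5 and 11.7 CPM in WT and 4.83, 4.43, 3.07 and 4.53 in NLRP3KO (log2 -2.06, SE 0.33). The promoter peak of Timp2 had 0.26 and did not pass. Within 2 Mb of the called member, 1 of 87 other tested peaks passed for 2610035D17Rik, 8 of 386 for Tnrc6c and 7 of 385 for Cep295nl. The groups did not overlap at these 3 members, and those of Tnrc6c and Cep295nl lost the call with scaling to all tags (adjusted p = 1 each), where their log2 values were -2.26 and -2.05.

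The least secure calls were at Tmod3 and Megf11 on chromosome 9. The member of Tmod3, a capping protein of actin filaments (chr9:75549074-75549325), had 8.45, 7.73, 10.2 and 7.92 CPM in WT and 4.83, 1.48, 1.32 and 0.647 in NLRP3KO (log2 -2.46, SE 0.47, edgeR adjusted p = 0.0143). The member of Megf11 (chr9:64447191-64447414) had 5.97, 14.1, 9.68 and 9.78 CPM in WT and 3.62, 5.91, 0 and 0.971 in NLRP3KO (log2 -2.61, SE 0.54, edgeR adjusted p = 0.0325). At Megf11 the genotypes were nearly touching, at 5.97 and 5.91 CPM. Tmod3 lost the call without WT replicates 1 (adjusted p = 0.0768), 3 (0.101) or 4 (0.0528) or NLRP3KO replicates 3 (0.143) or 4 (0.146), and Megf11 without WT replicates 2 (0.203), 3 (0.12) or 4 (0.123) or NLRP3KO replicates 3 (0.286) or 4 (0.169). With DESeq2 both had an adjusted p of 0.0747, and with scaling to all tags 0.685 and 0.363, at log2 values of -2.45 and -2.61. The other 3 tested members of Tmod3 had -0.46 to 0.085 and the other 8 of Megf11 -1.24 to 0.28, none passing. Within 2 Mb of the called member, 0 of 33 other tested peaks passed for Tmod3 and 1 of 235 for Megf11.

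**Figure D4:**
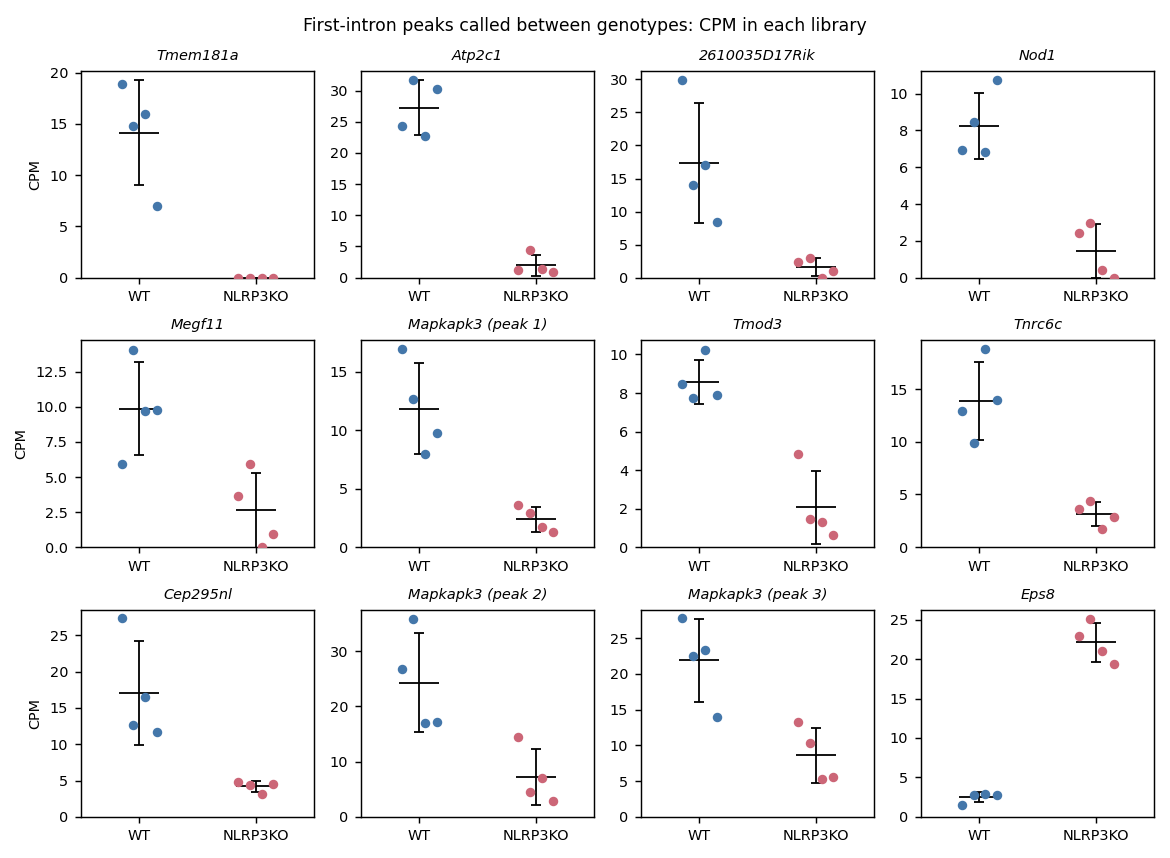
CPM of the 12 called first-intron peaks in each library (points, replicates 1 to 4 from left to right; bars, mean and SD, n = 4; axes start at 0). The 4 knockout libraries lie below the 4 WT libraries in 11 panels and above them at Eps8, and the Mapkapk3 peaks 1 to 3 are those at -2.57, -1.96 and -1.60.

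Of all tested members 0.150% passed, against 0.170% of all tested peaks, so 0 calls in a gene list is near that share. This holds for each list with 0 calls below. First-intron peaks of genes that define microglia held 0 calls. The 22 homeostatic genes had 47 members in 12 genes, and 44 were tested with 0 called (median log2 0.0051, 22 above and 22 below 0). P2ry12, Csf1r and Sall1 were among the 10 genes with peaks but no member. The strongest was in Entpd1, the ectonucleotidase CD39 (chr19:40708228-40708510, 233 ± 24.5 CPM per kb). The strongest member of P2ry6, a nucleotide receptor of phagocytosis, had 215 ± 33.2, and that of the fractalkine receptor gene Cx3cr1 155 ± 23.9 CPM per kb, both chosen after their values were seen. At Cx3cr1 (chr9:120054809-120055110) the CPM were 56.2, 47.1, 38.7 and 45.2 in WT and 34.99, 31.0, 38.6 and 46.3 in NLRP3KO. The genotypes overlapped, and the log2 fold change was -0.25 (SE 0.16, edgeR adjusted p = 1). A Tgfbr2 member (chr9:116139631-116139912) had the smallest p of the list, with 13.3 to 18.2 CPM in WT and 18.1 to 25.6 in NLRP3KO (log2 0.52, SE 0.20, adjusted p = 0.924).

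The 28 myeloid transcription factors had 104 members in 17 genes, of which 85 were tested and 0 called (median 0.030, 47 above and 38 below 0). Besides Mef2c, the highest were in Fli1, an ETS factor (204 CPM per kb), and Zfhx3 (200 CPM per kb). Spi1, which encodes PU.1, had 3 members, the strongest at 46.0 ± 4.57 CPM per kb. The smallest p was at Fli1 (chr9:32493654-32493910). It had 12.4, 16.2, 19.9 and 17.7 CPM in WT replicates 1 to 4 and 26.5, 20.7, 29.0 and 24.3 in NLRP3KO replicates 1 to 4. The groups did not overlap, yet the log2 fold change of 0.63 (SE 0.20) had an edgeR adjusted p of 0.673.

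Genes of disease-associated microglia had 32 members, 27 tested and 0 called (median 0.074, 16 above and 11 below 0). Lists follow the nearest start, so this count leaves out the called peak inside the first intron of Timp2, a gene of this list, which is assigned to Cep295nl (log2 -2.06). Ctsb, a lysosomal protease, had the strongest (185 ± 18.8 CPM per kb). The smallest p was at a Cd9 member (chr6:125481114-125481370), with 20.4 to 24.4 CPM in WT and 23.6 to 33.0 in NLRP3KO. The genotypes overlapped there, and the log2 fold change of 0.38 (SE 0.18) did not pass. The single member of Trem2, a lipid receptor of this state (chr17:48347326-48347602), had 32.8, 30.2, 31.9 and 20.03 CPM in WT and 21.7, 26.6, 32.9 and 32.3 in NLRP3KO (log2 0.058, SE 0.19, edgeR adjusted p = 1). The genotypes overlapped there. Phagocytosis genes had 95 members, of which 75 were tested and 0 called (median -0.0062, 37 above and 38 below 0). Dock2, an activator of Rac, led with 181 ± 10.3 CPM per kb. A weak Elmo1 member (chr13:20157712-20157912) had 2.28 to 4.22 CPM in WT and 5.91 to 7.03 in NLRP3KO without overlap (log2 1.10, SE 0.39, adjusted p = 0.831).

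In the inflammasome list, 12 members lay in 6 of 20 genes, 10 were tested, and Nod1 was the 1 called (median 0.068, 7 above and 3 below 0). Over all tested members 0.150% passed, and over all tested peaks 0.170%. A single call of a peak with few tags does not describe the list as a whole. P2rx7, the ATP receptor upstream of NLRP3, had the strongest (chr5:122644218-122644456), with 43.2, 30.2, 30.7 and 32.1 CPM in WT and 32.6, 42.8, 37.8 and 38.5 in NLRP3KO (log2 0.14, SE 0.17, edgeR adjusted p = 1). Nek7, a kinase that binds NLRP3, had 140 ± 29.6 CPM per kb at its strongest member and a log2 fold change of 0.12 there. NF-kB and inflammatory genes had 29 members, 25 tested and 0 called (median -0.14, 10 above and 15 below 0). Their strongest were in Irak2, a kinase of Toll-like receptor signalling (278 ± 21.8 CPM per kb), and Relb, an NF-kB subunit (270 ± 40.2 CPM per kb), with log2 fold changes of -0.12 and -0.091. A Rel member had 10.4 to 14.8 CPM in WT and 5.91 to 11.0 in NLRP3KO (log2 -0.45, SE 0.26, adjusted p = 1).

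Glutamine and glutamate genes, the metabolism named by the study, had 25 members in 15 of 30 genes, of which 20 were tested and 0 called (median -0.030, 9 above and 11 below 0). The strongest was in Oat, ornithine aminotransferase (chr7:132575701-132575949, 264 ± 21.5 CPM per kb). It had 68.1, 61.8, 60.9 and 72.2 CPM in WT and 83.2, 50.2, 72.5 and 63.1 in NLRP3KO, so that the genotypes overlapped (log2 0.035, SE 0.14, edgeR adjusted p = 1). The member of Slc7a11, the cystine-glutamate exchanger, had 16.5 to 26 CPM in WT and 26.2 to 28.1 in NLRP3KO (log2 0.32, SE 0.19, adjusted p = 1). Slc7a5, an amino acid transporter, had 5 members, the strongest at 152 ± 46.4 CPM per kb. Genes of alpha-ketoglutarate-dependent dioxygenases, enzymes that use a product of glutamine breakdown, had 25 members, 21 tested and 0 called (median 0.048, 14 above and 7 below 0). Kdm6b, a histone demethylase, led with 147 ± 19.1 CPM per kb, and the smallest p was at Tet2 (log2 0.51, SE 0.38, adjusted p = 1). At Tet2 the NLRP3KO values were 12.1, 14.8, 5.27 and 4.85 CPM against 4.22 to 6.26 in WT. Replicates 1 and 2 were the high ones, and without both the value turned to -0.034.

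TGF-beta pathway genes had 84 members in 18 of 25 genes, of which 75 were tested and 0 called (median 0.11, 49 above and 26 below 0). Ski led with 297 ± 41.5 CPM per kb, followed by the Smad3 peak printed above with 262 ± 33.1. Another Smad3 member (chr9:63726640-63726919) had the smallest p. It had 14.9, 20.4, 15.9 and 20.03 CPM in WT and 8.45, 10.3, 7.90 and 12.6 in NLRP3KO. All knockout libraries were below all WT libraries, but the log2 fold change of -0.80 (SE 0.24) had an edgeR adjusted p of 0.514. Over all lists together there were 458 distinct members, 386 of them tested, with a median of 0.029 (215 above and 171 below 0), against 54.6% above 0 over all tested members and 50.5% over all tested peaks.

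**Figure D5:**
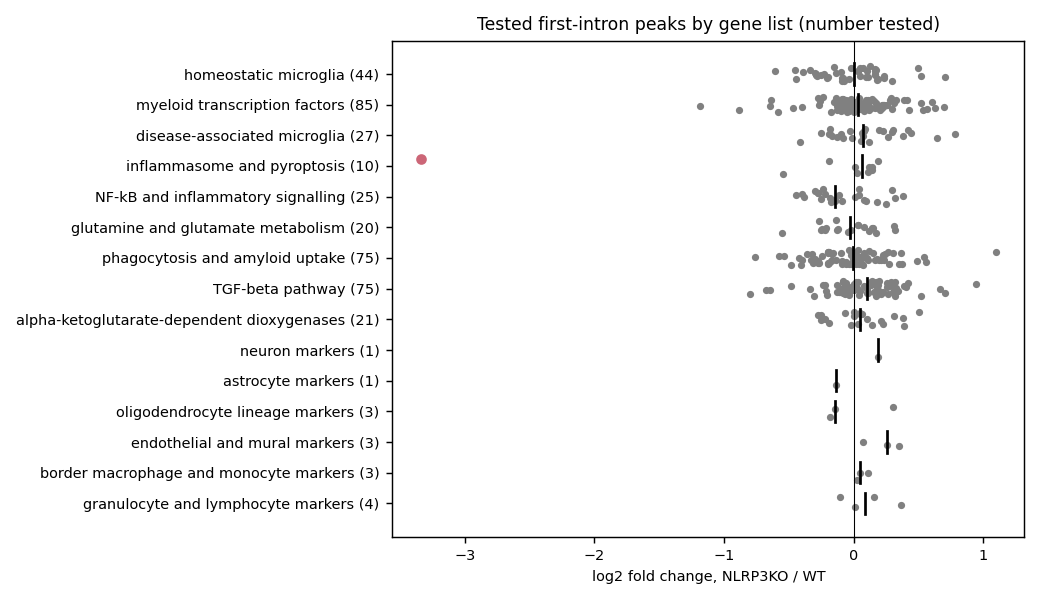
Log2 fold change of NLRP3KO over WT of each tested first-intron peak in each gene list (grey, not called; red, called; vertical bar, median), with the number tested in parentheses. The medians of the 9 microglial and metabolic lists lie between -0.14 and 0.11, and the called point at -3.34 is Nod1.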

How the data were processed

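Members and gene lists were chosen with earlier results of these data known. Per the file headers, the authors merged IDR peak lists of the WT and knockout libraries and counted tags over them with annotatePeaks of HOMER, keeping peak sizes as given and at most 3 tags per position. Bowtie2, HOMER, DESeq2 and the mm10 build are named in the submitters' processing notes. The deposited counts are whole tags per peak. Whether reads were shifted or duplicates removed is not given in the sources used here. Per the labels, fragments of 165 to 250 bp were sequenced single-end for 51 cycles.

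All peaks entered edgeR's quasi-likelihood test (edgeR 4.0.16, R 4.3.3) with TMM scaling, filterByExpr (minimum count 10) and Benjamini-Hochberg adjustment, and genotype as the only term. CPM are relative to tags in tested peaks. Single values per library were compared by exact permutation (scipy 1.17.1). The fit was also run on simulated data with 200 changed peaks, but how many were recovered is not given here. Alternatives covered scaling, filters, robust moderation, DESeq2 1.42.0, a replicate block and omitted libraries. Level comparisons added 0.5 CPM per kb. No library was a copy of another, since the lowest chi-square per degree of freedom between 2 libraries was 1.17. That pair was NLRP3KO replicates 1 and 2, the libraries with the fewest tags in peaks. The value cannot tell whether 2 libraries came from the same sample.

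Named were all called members, the 10 with the highest WT level, the strongest and smallest-p member of each microglial or metabolic list, and the 3 genes with most members. The sequences and all other named genes were chosen after their values were seen. Sequence of a peak was printed only where a RefSeq start window covers it, since no genome of this build was used here.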

Additional observations from a re-analysis of the deposited data

Results flagged for a closer look

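Values per library were checked in 102 groups of 4 libraries, and 8 groups held 1 library whose gap to the nearest of the others passed Dixon's critical value (95%). In independent groups chance would flag about 1 in 20. These groups share libraries, and WT replicate 1 recurs among the flags, so that rate need not hold. The cause of the flags was not tested. At the called Eps8 peak, WT replicate 1 had 1.49 CPM against 2.79 to 2.85 in the other WT libraries. At the called Atp2c1 peak, NLRP3KO replicate 2 had 4.43 CPM against 0.971 to 1.32 in the other knockout libraries. WT replicate 1 stood above the other WT libraries at 4 members, with 139 CPM against 114 to 116 at Sipa1l1, 112 against 76.9 to 81.5 at Soga1, 43.2 against 30.2 to 32.1 at P2rx7, and 62.1 against 35.3 to 37.2 at Slc7a5. At Inpp5d, NLRP3KO replicate 2 had 78.2 CPM against 98.9 to 101 in the other knockout libraries. The share of peak tags in first-intron peaks was 12.1% in NLRP3KO replicate 4 against 12.5% in each of the other knockout libraries.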

How the results depend on the processing

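The 12 called members were all called again with relative log expression size factors, without a filter on low counts, and with robust moderation, which called 3 higher. Scaling to all tags of a library moved the median log2 fold change of members from 0.030 to 0.12 (all tested peaks 0.099) and left 4 calls, 0 higher and 4 lower. These were Atp2c1, Tmem181a, 2610035D17Rik and Nod1. A minimum mean of 20 tags left 4 calls, 3 of them lower, since it tested 3653 members, 4 of the 12 among them, and 0 list members were called. DESeq2 called 10. With 1 library left out, 8 to 18 members were called, 1 to 7 higher and 7 to 14 lower, the median ran from 0.0031 to 0.049, and the count of called list members from 0 to 1. The 7 higher calls came without NLRP3KO replicate 4, and there were 4 without WT replicate 1, 3 without NLRP3KO replicate 1 and 2 without WT replicate 2. The 7 lower calls came without NLRP3KO replicate 3. Without NLRP3KO replicates 1 and 2, the libraries with the lowest share of tags in peaks, 27 were called, 4 higher and 23 lower, with a median of 0.0044, 2 list members called and Tet2 at -0.034; the cause was not tested. The log2 difference in the ratio of first-intron to later-intron tags ran from -0.0097 to 0.0039 with 1 library left out, and changed sign without WT replicate 2 and, at 0.001, without NLRP3KO replicate 4. The level difference from later-intron peaks turned to 0.0011 without division by length. With the replicate number as a block, 18 members were called, 5 higher and 13 lower, and all 12 were kept. The deviations of libraries that share a number from their group means had r of -0.0078, 0.096, -0.0083 and 0.15. Between libraries with different numbers r ran from -0.125 to 0.088. The largest values, 0.15 and 0.096, were thus between libraries that share a number, and whether the numbers pair the libraries was not settled. The median member held 7 to 26.5 tags per library, so precision differed between libraries.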
